A study of Drosophila melanogaster with 2 samples.

Results

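Sima is the fly counterpart of HIF-1alpha, the oxygen-regulated subunit of the hypoxia-inducible factor, and its binding over its own gene, sima, was examined here. The gene lies on the plus strand of chromosome arm 3R at 30058311 to 30121798 of the dm6 build and spans 63488 bp. All listed regions with a summit in that span or within 20 kb to either side were taken, by position alone. The list called on the pooled reads held 55 such regions out of 30000. The list of replicate 1 held 56 and that of replicate 2 held 58, each again out of 30000. The pooled list is labelled as peaks and background, so a region in it need not be a site of binding. The counts below are counts of listed regions, weak ones included. The 2 samples were biological replicates of 1 group of mixed-sex whole embryos, 0 to 24 h old. They came from the strain sima-RB-GFP, in which the RB isoform of sima carries eGFP at its C terminus. Chromatin of 200 to 800 bp was precipitated with an antibody against GFP, so the tagged protein was recovered and untagged Sima was not. Each list was called against 1 control file, whose genotype is not given in the sources used here. Which promoter drives the tagged copy, how many copies the line carries and whether its own sima gene is intact are not given either. With 2 samples of 1 group no test was possible, and what follows is a description.

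As background, Sima is a basic helix-loop-helix PAS protein that binds DNA together with its partner Tango. At normal oxygen the prolyl hydroxylase Hph marks it for the ubiquitin ligase that holds Vhl, and it is degraded. At low oxygen it accumulates and binds hypoxia response elements, whose core is written RCGTG, with A or G at the first base. A transcription factor that binds its own gene may act on its own transcript, which is why the gene of a factor is often looked at in its own binding map.

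The annotation gives sima 4 transcripts from 3 start sites. RA and RB share the first, at 30058311. RD starts at 30062922 and RC far inside the gene at 30099520. RA encodes 1507 codons, RD 1593, RC 869 and RB 426. RB holds all 1056 coding bases of exons 2 to 7, the part of the gene that encodes most of the DNA-binding and PAS domains, and RC holds 0 of them. RB in turn skips 4 coding exons, 2635 bp in all, that lie between the RC start site and the last exon. The RB coding sequence is too short to reach the oxygen-dependent degradation domain, which in the full-length protein lies well past the PAS domains. The tagged isoform is in that sense a partial model of full-length Sima.

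The strongest regions inside sima were 2 intronic peaks. They were the only ones in the gene that passed the threshold on the irreproducible discovery rate (IDR). The IDR list was exactly the 1272 pooled regions of highest signal. Being in it thus marks pooled signal and does not by itself show that a given region was even between the replicates. The bases around the summits of the 2 peaks are shown first because these peaks carry the largest signals. Those at the 2 start sites with a region follow. All are plus-strand sequence of the Release 6 genome, 50 bp to either side of the summit, read 5′ to 3′. The words ACGTG and GCGTG, the 2 forms of the core, were searched for on either strand. So were GAGAG and the word TATCGA, and also the word TTAAAA. Capitals mark each match.

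Intron 1 peak, chr3R:30061232-30061332: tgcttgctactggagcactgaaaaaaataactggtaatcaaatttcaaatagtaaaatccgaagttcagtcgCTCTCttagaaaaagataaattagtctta
Intron 7 peak, chr3R:30092783-30092883: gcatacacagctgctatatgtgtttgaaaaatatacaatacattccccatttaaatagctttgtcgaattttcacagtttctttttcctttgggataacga
RA and RB start region, chr3R:30058403-30058503: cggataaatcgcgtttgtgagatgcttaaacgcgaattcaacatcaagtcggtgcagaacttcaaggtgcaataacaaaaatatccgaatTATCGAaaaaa
RC start region, chr3R:30099662-30099762: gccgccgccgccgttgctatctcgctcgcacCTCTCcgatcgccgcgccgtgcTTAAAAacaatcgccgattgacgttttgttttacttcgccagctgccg

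None of the 4 windows held RCGTG. The intron 1 window held GAGAG on the minus strand, the RA and RB window TATCGA, and the RC window GAGAG and TTAAAA. Both intronic windows were rich in A and T, with a G+C content of 31.7% and 32.7%. The RC start region differed from them, at 60.4% G+C. The RA and RB start region had 37.6%, and the median of all 30000 pooled regions was 40.6%.

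The intron 1 peak ranked 157 by signal in the pooled list. The signal value is the authors' own, on a scale that is not given, so it is reported here as its rank and as its ratio to the median of its list. The ratio was 5.23 in replicate 1, where it ranked 175, and 7.49 in replicate 2, where it ranked 150. The mean was 6.36 ± 1.60 (SD, n = 2). Its summit lay at +2971 bp from the RA and RB start and at -1640 bp from the RD start, so RD was the nearest start. Both replicates placed it near the head of their lists of 30000.

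The intron 7 peak ranked 264. Its ratio was 3.76 in replicate 1 (rank 386) and 6.19 in replicate 2 (rank 238), with a mean of 4.98 ± 1.72 (SD, n = 2). It stood 34522 bp into the gene and at -6687 bp from the RC start, in the long last intron of RB. It too was found in both replicates, and in both the intron 1 peak was the stronger one. Of the 1000 protein-coding genes of 20 kb or longer on the major arms, 6.9% held 2 or more IDR summits, as sima did. Per 10 kb of span, sima had 0.315 IDR summits and ranked 114 of those 1000 genes.

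**Figure D1:**
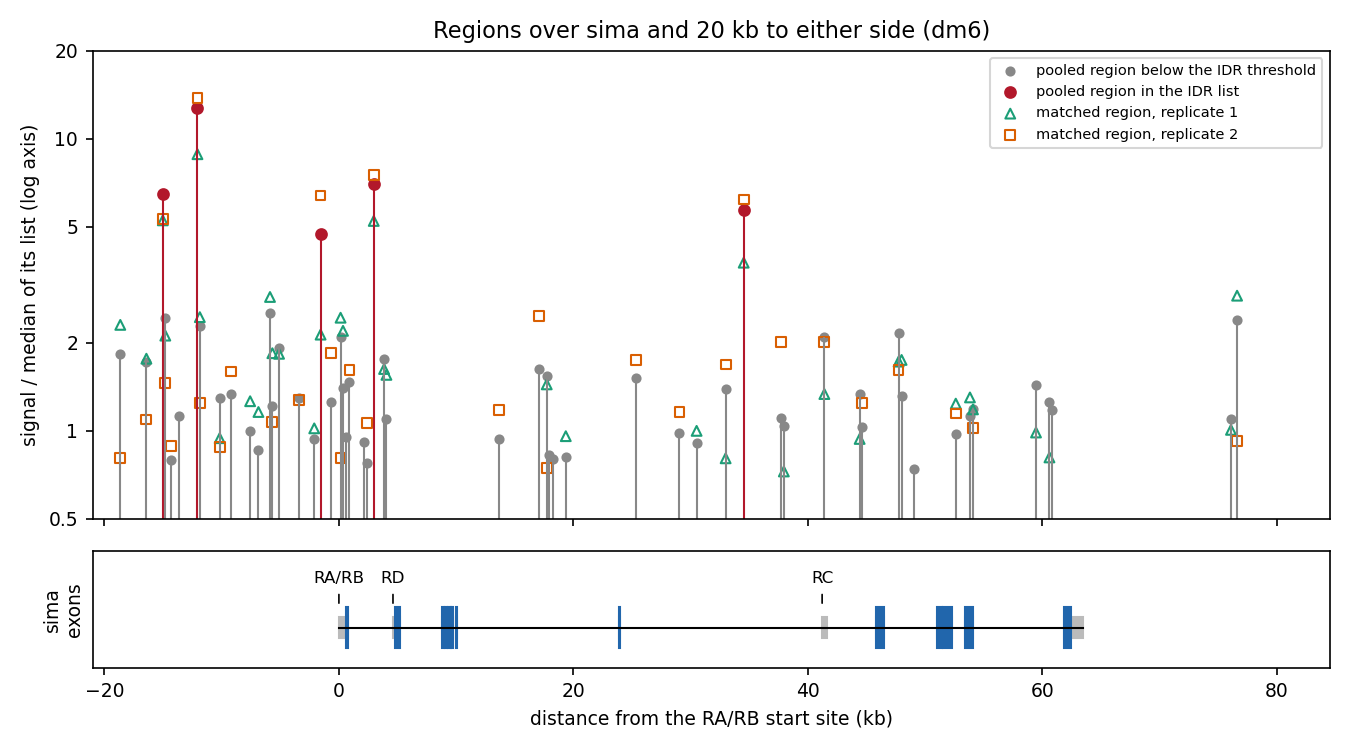
Each stem is 1 of the 55 pooled regions, placed by the distance of its summit from the RA and RB start site in kb (horizontal axis), with its signal divided by the median of the pooled list (vertical axis, logarithmic). Triangles and squares are matched regions of replicates 1 and 2, red marks the 5 regions of the IDR list, and below the axis grey boxes are exons and blue boxes coding sequence of sima. The intron 1 and intron 7 peaks reach 6.98 and 5.71. No pooled region stands over exons 2 to 7 of RB, which make up only 1056 bp.

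At the start sites themselves the signal was weaker. A pooled summit lay within 500 bp of 2 of the 3 start sites, against 46.5% of all 19252 protein-coding start sites. At the RA and RB start the strongest region was at +142 bp and ranked 2206, with a ratio of 2.10 in the pooled list. The replicates differed there: replicate 1 had a region at +161 bp with a ratio of 2.44 and rank 1162, and replicate 2 one at +155 bp with a ratio of 0.805 and rank 25256, near the foot of its list. The mean ratio was 1.62 ± 1.15 (SD, n = 2), so this region was strong in 1 replicate alone.

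At the RC start the strongest region lay at +192 bp with rank 2204. Its ratio was 1.33 in replicate 1 (rank 6835) and 2.02 in replicate 2 (rank 2178), a mean of 1.68 ± 0.482 (SD, n = 2). Here replicate 2 had the higher value, the reverse of the RA and RB start. At the RD start there was no region within 500 bp in any of the 3 lists. The nearest pooled summit, of rank 11724, stood at -559 bp, and that of replicate 1 at -541 bp. In replicate 2 the nearest was the intron 1 peak itself, at -1615 bp. No start region of sima was in the IDR list.

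Of the 34 pooled summits inside sima, 29 lay in introns, 3 in untranslated exon sequence and 2 in coding sequence. The 5 exonic summits were 14.7% of the 34, and exons of any transcript make up 11.3% of the gene. In replicate 1 the share was 12.5% (4 of 32) and in replicate 2 15.2% (5 of 33). Over all genes of 20 kb or longer, exons held 15.4% of summits and made up 14.4% of bases. In sima, as over long genes at large, the share of summits in exons was thus a little above the share of bases. Of the 5, 3 were in exon 1 (at +142, +350 and +644 bp), 1 in the first exon of RC and 1 in a coding exon that RB skips, at 53816 bp.

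Apart from exon 1, the exons of the tagged isoform are short and held few regions. Exons 2 to 7 of RB make up 1056 bp and the last exon 1670 bp, while the gene held 5.36 pooled summits per 10 kb. At that density few summits would fall in them in any case, so the low counts are not read as a trait of these exons. No pooled region overlapped any of exons 2 to 7 of RB, and none overlapped its last exon. Replicate 1 had 1 region over exons 2 to 7 and 1 over the last exon, and so did replicate 2. Whether the tagged construct holds spliced or genomic sequence is not given in the sources used here. The 4 coding exons that RB skips were overlapped by 2 regions in each of the 3 lists. The 2 coding summits, in exon 1 and in one of those exons, ranked 17045 and 10996, far below the intronic peaks.

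Along the introns of RB the regions were unevenly spread. Intron 1 (7947 bp) held 6 pooled summits, or 7.55 per 10 kb. Intron 6 (13759 bp) held 6, or 4.36 per 10 kb, and the best of them ranked only 4082. Intron 7 (37807 bp) held 19, or 5.03 per 10 kb. Of these 19, 6 were found in both replicates, as was 1 of 6 in intron 1 and 1 of 6 in intron 6. Over all pooled regions the share was 23.1%, and these counts are too small to set apart from it. Intron 7 of RB includes the first exon of RC, and the RC start region is among its shared regions. The short introns 2 to 5, of 59 to 249 bp, held 0. The longest stretch between pooled summits inside the gene ran from 4.05 to 13.6 kb after the first start, across the RD start and exons 2 to 6. It held 2 regions of replicate 1 and 3 of replicate 2. A longer one, from 60.8 to 76.1 kb, covered the last exon and most of the downstream flank, and there replicate 1 had 1 summit and replicate 2 had 6.

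The best of the remaining intronic regions was the one at 47731 bp, in intron 7. It ranked 2072, with a ratio of 1.72 in replicate 1 and 1.61 in replicate 2 (mean 1.67 ± 0.0788, SD, n = 2), so the replicates were close to each other there. The region at 17061 bp in intron 6 ranked 4082. It had a ratio of 2.48 in replicate 2 and no match in replicate 1. The region at 37713 bp was likewise found in replicate 2 alone, with a ratio of 2.01, and that at 3852 bp in replicate 1 alone, with 1.63. Apart from the 2 IDR peaks, the intronic regions had pooled ratios between 0.742 and 2.17.

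Over the whole window, 19 of the 55 pooled regions had a summit within 100 bp in both replicates (34.5%), against 23.1% of all pooled regions. A further 17 were matched in replicate 1 alone, 12 in replicate 2 alone and 7 in neither. Inside sima 9 of 34 were matched in both (26.5%), and in the flanks 10 of 21 (47.6%). Sharing followed signal. Of the 19 window regions ranked in the first 5000, 14 were matched in both (73.7%, against 72.9% of all regions of those ranks). Of the 14 ranked 5001 to 10000, 4 were (28.6%, against 37.5%), and of the 22 ranked past 10000, 1 was (4.55%, against 7.02%). Inside sima 6 of 9, 2 of 9 and 1 of 16 were matched in both in these bands (66.7%, 22.2% and 6.25%). Those counts are too small to set apart from the shares of all regions. The higher share over the window as a whole thus went with its greater part of highly ranked regions, and was not seen within the lower bands.

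Among the 19 shared regions, replicate 1 had the higher ratio in 12 and replicate 2 in 7. The ratio of replicate 1 over replicate 2 ran from 0.334 to 3.14 with a median of 1.08, and 14 pairs were within 2-fold of each other. A ratio over 3 was reached in both replicates by 4 regions: the intron 1 and intron 7 peaks and 2 in the upstream flank. By overlap of 1 bp instead of summit distance, 58.2% of the window regions were found in both replicates, against 41.9% of all.

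**Figure D2:**
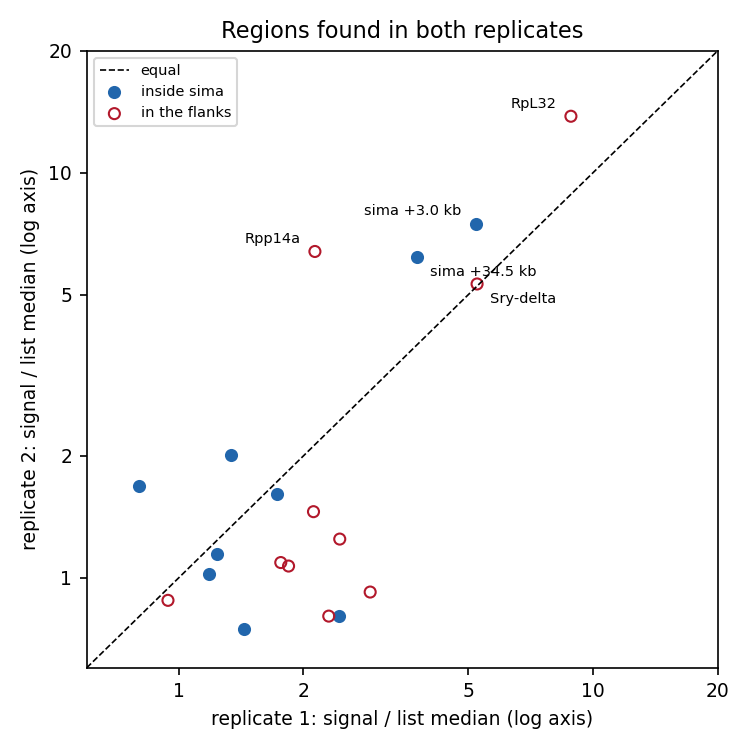
Each point is 1 of the 19 pooled regions of the window with a summit within 100 bp in both replicates, with its signal divided by the list median in replicate 1 (horizontal) and in replicate 2 (vertical), both on logarithmic axes. Filled points lie inside sima and open ones in the flanks, the named points are the 5 IDR regions, and the dashed line marks equal values. The IDR regions stand above the others in replicate 2, from 5.31 to 13.8. In replicate 1 they run from 2.13 to 8.85, and the lowest of them lies among regions outside the IDR list, which reach 2.90.

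For extra copies of the locus in the tagged line, only the density of summits along the arm was at hand. Such counts cannot decide whether there were any, so the density is described and this cause was not tested. The span of sima held 5.36 pooled summits per 10 kb, 2.40 times the mean of 2.23 over the 5 major arms. That mean was taken over the full length of the arms, so stretches with almost no listed regions lower it. Replicate 1 gave 5.04 per 10 kb (2.26 times its mean) and replicate 2 gave 5.20 (2.32 times). Both replicates thus had a raised density. Among the 1000 long genes sima ranked 69, with a median gene at 1.93 and the highest at 10.1. It ranked 97 with replicate 1 and 42 with replicate 2.

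**Figure D3:**
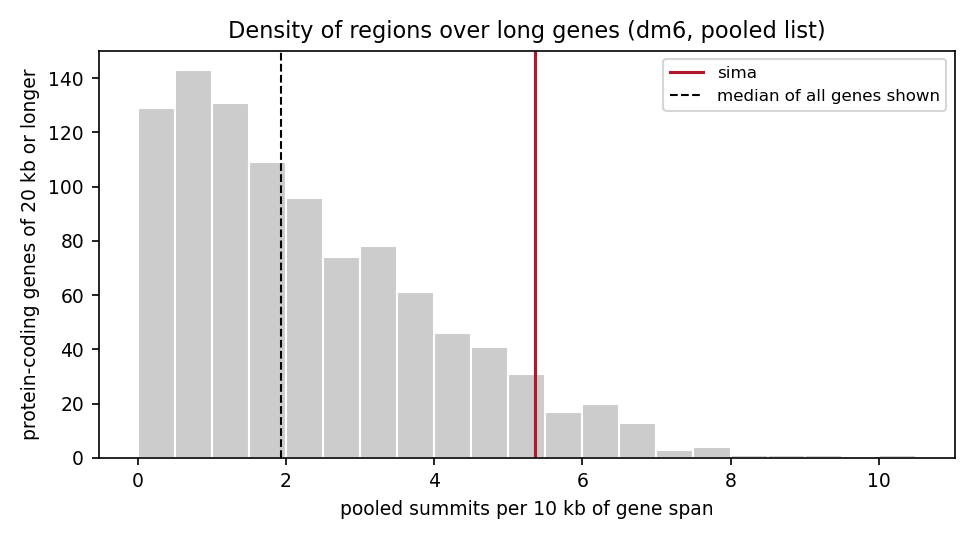
Histogram of pooled summits per 10 kb of gene span (horizontal axis) over the 1000 protein-coding genes of 20 kb or longer on the major arms (vertical axis, number of genes). The solid line marks sima at 5.36 and the dashed line the median of 1.93, and genes run on to 10.1.

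The genes closest to sima in this density, over the pooled list of both samples, were Ptpmeg, a protein tyrosine phosphatase gene (5.37 per 10 kb), and Mnt, which encodes an antagonist of Myc (5.36), just above it. Just below came kay, which encodes the fly Fos protein (5.33), and the annotated span of ND-15, a subunit gene of respiratory complex I (5.33). The 3 densest long genes were drn (10.1), atos (9.32) and tara (8.94).

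The density varied along sima and its flanks. In bins of 10 kb counted from the first start, the 6 bins that lie wholly inside the gene held 9, 6, 2, 5, 6 and 4 pooled summits. The last 2 bins before the start held 9 and 10 pooled summits. They held 11 and 10 in replicate 1 and 11 and 5 in replicate 2, where the bin from 30 to 40 kb inside the gene had 9. The upstream flank as a whole had 19 summits in 20 kb, 4.25 times the mean of the arms, and the downstream flank 2, or 0.448 times. From 20 to 100 kb away, the density was 1.29 times the mean upstream and 1.12 times downstream. Replicate 2 also differed on the downstream side, with 9 summits in the flank (2.01 times), while replicate 1 had 3 (0.673 times).

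**Figure D4:**
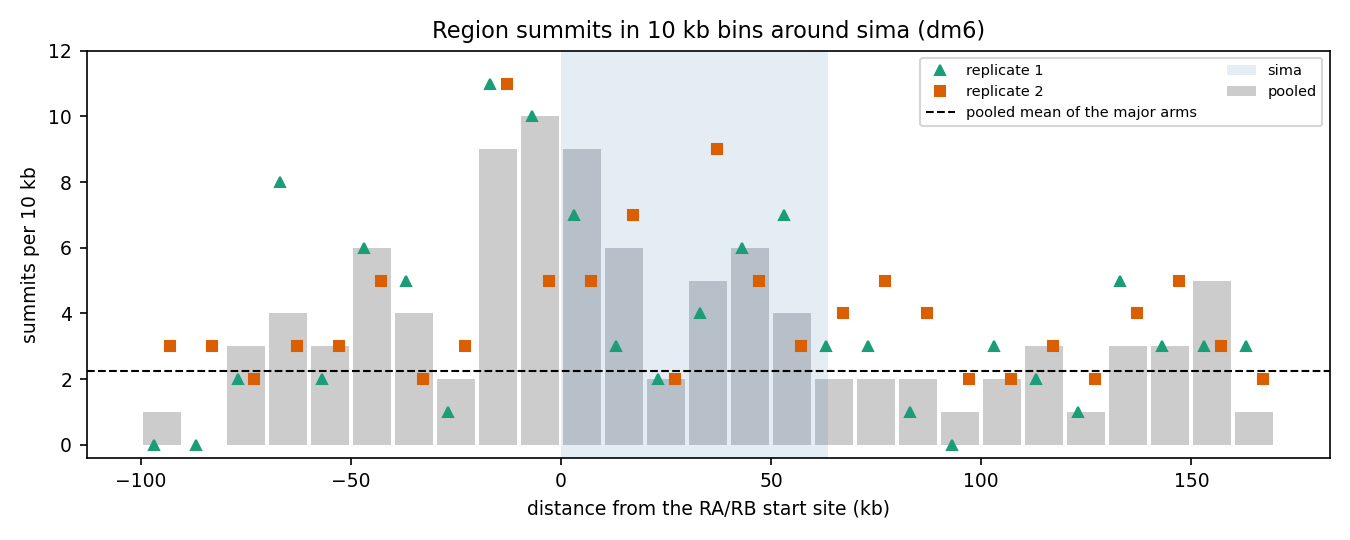
Bars give pooled summits per 10 kb in consecutive bins (vertical axis) by distance from the RA and RB start in kb (horizontal axis), with replicate 1 as triangles and replicate 2 as squares. The shaded band is the gene and the dashed line the pooled mean of 2.23. The 2 bins before the start and the first bin of the gene hold 9 or 10 pooled summits, and the third bin of the gene holds 2.

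The density over sima was above the mean in each band of rank. Regions ranked in the first 5000 stood at 3.78 times their mean density inside the gene, and those ranked 5001 to 10000 at 3.81 times. Those past 10000 were at 1.69 times. Of the 34 regions 16 were of that weakest kind (47.1%), against 66.7% of the whole list. Part of the count came from regions side by side: 14 of the 34 (41.2%) had another summit within 250 bp, against 14.0% of all regions. With such neighbours merged, the 34 became 27 sites and the density 2.05 times the mean. Whether extra copies of sima contributed was not tested, since no coverage track or control signal was analysed here.

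The white gene w on X is the usual eye-colour marker of fly transgenes and was looked at beside sima. Its 5868 bp held 2 pooled summits, or 3.41 per 10 kb, above the mean of 2.23, and 3 in each replicate. With 20 kb to either side the density there was below the mean, at 0.781 times. The number of summits in w itself is too small to set against sima. Whether this line carries that marker is not given in the sources used here.

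The gene-dense upstream flank held the other 3 IDR regions of the window. It contains 18 protein-coding start sites, and 9 of its 19 summits (47.4%) lay within 500 bp of a start, while in sima 3 of 34 did (8.82%). Over all pooled regions the share was 25.4%. In all, 5 of the 55 regions were in the IDR list (9.09%), against 4.24% of all pooled regions. Inside sima it was 2 of 34 (5.88%), near the share of all regions, and in the flanks 3 of 21 (14.3%). The strongest, at rank 39, had ratios of 8.85 and 13.8 in replicates 1 and 2 and lay between RpL32, a ribosomal protein gene, and CG7943. Its summit was at -87 bp from an RpL32 start and at -12063 bp from the first start of sima. The second, at rank 187 and at -49 bp from the start of Sry-delta, a zinc-finger protein gene, was even between replicates (5.25 and 5.31).

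The third, at rank 405, was the one nearest to the sima start, at -1563 bp. It had a ratio of 2.13 in replicate 1 (rank 1663) and 6.39 in replicate 2 (rank 220), a mean of 4.26 ± 3.01 (SD, n = 2). It lay at -111 bp from the shared start of Rpp14a and CG7950, closer than to any start of sima. Between it and sima there was 1 more region, at -703 bp, found in replicate 2 alone (ratio 1.85). Of the 19 neighbouring protein-coding genes of the window, 13 had a pooled region within 500 bp of a start. An IDR region lay there at 5 genes, which share the 3 IDR regions of this flank. Among all protein-coding start sites 46.5% had a pooled summit within 500 bp, a share per start. The share over all genes was not counted, so the 2 counts are not read against one. Downstream, the 2 regions both stood at Tpi, the gene of the glycolytic enzyme triosephosphate isomerase. The stronger ranked 1682 and was high in replicate 1 (ratio 2.90) and low in replicate 2 (0.923).

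The outermost summits inside the window were 18.6 kb before and 13.1 kb after the gene, at ranks 3014 and 1682. The next ones beyond it lay 21.0 kb before and 21.2 kb after, at ranks 8767 and 23231.

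The hypoxia core was about as common at the regions of the window as elsewhere. RCGTG stood within 50 bp of 12 of the 55 summits (21.8%), on either strand, against 19.4% of all pooled regions. With the replicate lists the order was not the same in both: 16.1% against 19.0% of the whole list in replicate 1, and 20.7% against 19.8% in replicate 2. Inside sima 7 of 34 held it (20.6%). It was at 0 of the 5 IDR regions and at 0 of the regions within 500 bp of a sima start, numbers too small to read against that share. With 100 bp to either side the intron 7 peak gained 1 match and the intron 1 peak 0. The third strongest region of sima, at 47731 bp, held it. The sites below show the core in capitals, as it reads on the plus strand, with 10 bases to either side. The first pair carries the best ranks and the second pair is the 2 sites in the gene that read ACGTG.

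Region at 47731 bp, rank 2072: aatttttggcGCGTGtgccaaggtc
Region at 17723 bp, rank 4718: attaagcattGCGTGtcagctacac
Region at 37945 bp, rank 13534: tggcagaattACGTGgcagctgagc
Region at 53816 bp, rank 10996: ctctgcctggACGTGcagtcccctc

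The first lies in intron 7, 9 bp from its summit, and was found in both replicates. The second, in intron 6, was also matched in both. Its match in replicate 2 had a ratio of 0.746 and rank 29497, at the foot of that list. The third, also intronic, and the fourth, in a coding exon absent from RB, were matched in replicate 1 alone. There the third had a ratio of 0.725 and rank 29926, again at the foot of the list, and the fourth 1.30 and rank 7345. Among the other words, GAGAG, the site of GAGA factor, was within 50 bp of 11 of the 55 summits (against 11.3% of all regions) and of 8 of the 34 in sima (23.5%). TTAAAA was at 7 (12.7%, against 18.4%) and TATCGA, part of the DREF site, at 3 (5.45%, against 4.75%). CACGTG, which contains ACGTG, was at 0, against 1.26% of all regions. The median G+C content was 44.6% in the window and 43.6% in sima. A word in a window is a match of letters and says nothing of what is bound there.

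Other genes of the oxygen-sensing pathway were counted in the same way. Of tgo, Hph, Vhl, Cul2, EloB, EloC and Roc1a, 5 of 7 had a pooled region within 500 bp of a start, and 1, EloB, an IDR region. Among all protein-coding start sites 46.5% had a pooled summit that near, a share per start and not per gene. The share over all genes was not counted, so these few genes cannot be read against it. The best ranks near a start ran from 1263 at EloB to 26326 at EloC. With 20 kb to either side, their density of pooled summits ran from 1.30 times the mean at Roc1a to 2.90 times at tgo, and the window of sima had 2.38 times. These genes are much shorter than sima, so their values rest mostly on the flanks: tgo and Roc1a held 0 pooled summits in their own spans. Hph, the longest of them at 12471 bp, held 9, or 7.22 per 10 kb.

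The dm3 lists gave the same picture. The matching stretch was found by its spacing: 51 of the 55 dm6 summits had a dm3 pooled summit at the same spacing, against at most 3 at any other place on the arm. It held 52 pooled regions, of which 32 were inside the gene, and 5 IDR regions. The best rank was 39 in the window and 156 in the gene. The replicate lists held 56 and 55 regions there.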

How the data were processed

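Per the text files deposited with the samples, the authors called relaxed lists of 30000 regions for each replicate and for the pooled reads against 1 control file, on dm6 and dm3, and a list thresholded on the IDR. The signal values that the authors deposited are on an unnamed scale. The -log10 q values deposited beside it were used for no comparison. Neither the peak caller nor its version is given in the sources used here. Without read totals the depth, and the precision it gives, is unknown.

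Positions are 1-based. Counts, distances and ratios came from numpy 2.4.6 and pandas 2.3.3 under Python 3.11.15, plots from matplotlib 3.10.9, and the annotation was that of Ensembl (release 115, BDGP6.54). Sequence came from RefSeq's Release 6 genome, which has the coordinates of dm6. The counting steps were tested on simulated data. Regions were matched between lists when summits lay within 100 bp. Background densities are over the full length of 2L, 2R, 3L, 3R and X, with no stretch left out. The dm3 stretch was located by its spacing, with no coordinates converted. The members, lists, words and alternatives were chosen with earlier results of these data known. Named genes are sima, its neighbours in the window, w, 7 pathway genes, the 2 long genes to either side of sima in density and the 3 densest. Of the neighbours, those at an IDR region and Tpi were named. Alternatives covered the replicate, build, window, matching, distance, list length, annotation and words.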

Additional observations from a re-analysis of the deposited data

How the results depend on the processing

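The number of regions over sima stayed within 1.5 times of 55 with each replicate alone (56 to 58), with dm3, with any overlap, with 10 kb of flank and with neighbours merged. The span alone held 34. The density over sima, 2.40 times the mean, was 2.26 to 2.32 with 1 replicate, 3.80 with the 10000 strongest regions, 3.78 with the 5000 strongest, 2.15 by bases covered and 2.05 with neighbours within 250 bp merged, a setting chosen after seeing the data. The share found in both replicates was 23.6% at 50 bp, 45.5% at 200 bp and 58.2% by overlap of 1 bp, and for all pooled regions 14.5%, 32.7% and 41.9%, so the order held in each. The best rank in the window was 41 to 59 with 1 replicate. Exonic summits made up 12.5 to 15.2% with 1 replicate, 14.1% by bases covered and 14.7% with the RefSeq gene model. A region lay near 2 of the 3 start sites with each replicate alone and at 250 bp, and near 3 at 1000 bp. The share with RCGTG was 16.1 to 20.7% with 1 replicate. Against its own list it was lower in replicate 1 (19.0%, leaving out 14 regions whose sequence was not read) and higher in replicate 2 (19.8%). It was 38.2% within 100 bp (35.1% of all regions), 9.09% for ACGTG (8.43%) and 14.5% for GCGTG (12.1%). The cause of these shifts was not tested. With 2 samples, unknown depth and no control list, spread between replicates is the only error given.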

Other observations

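The gene holds 2 annotated transposable elements. A hobo element of 1406 bp in intron 7 was overlapped by 0 regions in the pooled list and in both replicates. At 5.36 pooled summits per 10 kb of the gene, few would fall in so short a stretch. The count is thus not read as a trait of the element. An INE-1 element of 58 bp in intron 6 was overlapped by 1 pooled region and 1 of replicate 2.

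In each replicate some regions over the window had no pooled summit within 100 bp: 20 of 56 in replicate 1, the best at rank 2620, and 27 of 58 in replicate 2, the best at rank 2230. Of the regions of replicate 1 in the window, 20 (35.7%) lay within 100 bp of one of replicate 2, against 22.7% of its whole list.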
